A study of Mus musculus with 2 samples.

Results

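The 10 genes described here encode the subunits of the transcription factor NF-kB and proteins that feed back on it: Nfkb1, Nfkb2, Rela, Relb, Nfkbia, Nfkbiz, Bcl3, Tnfaip3, Birc3 and Zc3h12a. They were chosen by symbol, and all 10 were found among the 23197 genes listed in both expression matrices. Single-cell RNA-seq was made from mouse colon (proximal and distal colon with rectum, C57BL/6, aged 8 to 10 weeks) in 2 libraries, each pooling the cells of 3 mice. One library came from Elf-1-/- mice treated with DSS (dextran sulfate sodium), which damages the lining of the colon and is used to model colitis. The other came from DSS-treated wild-type mice. Elf1 encodes an ETS family transcription factor expressed in lymphoid and other cells. The comparison asks how the inflamed colon differs between mice under these labels. The DSS dose and its duration, the sex of the animals and the extent of the Elf1 deletion were not given in the sources used here. Because each group is a single library in which cells cannot be assigned to animals, no difference was tested, and every interval covers counting error only.

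NF-kB proteins are dimers of the Rel family that wait in the cytoplasm bound to inhibitors of the IkB family. Cytokines such as tumour necrosis factor and interleukin-1, and microbial products, activate the IkB kinases, the inhibitor is degraded, and the dimer enters the nucleus and binds kappa-B sites in DNA. Among its targets are genes for its own inhibitors, so RNA of Nfkbia or Tnfaip3 is commonly read as a sign of recent pathway activity. In the colon the pathway is known for driving inflammatory cytokines in myeloid and stromal cells and for protecting the epithelium. Rela and Nfkb1 (p65 and p105/p50) form the canonical dimer, and Relb and Nfkb2 (p100/p52) that of the non-canonical branch. Nfkbia encodes IkB-alpha, Nfkbiz and Bcl3 nuclear IkB proteins that steer target choice, Tnfaip3 the ubiquitin-editing enzyme A20, Birc3 the ubiquitin ligase cIAP2, and Zc3h12a the ribonuclease Regnase-1, which degrades messenger RNAs of cytokines.

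Promoter sequences show where kappa-B motifs lie beside these genes. RefSeq promoter windows (GRCm38.p6, 250 bases before to 50 after a gene's start) were matched by symbol for 7 of the 10 genes, with 10 windows in all. The genes with no window were Nfkb1, Relb and Nfkbiz. Both strands were searched for the 10-base degenerate kappa-B consensus and for the spelled motif GGAANTTCC, in which N is any base and which can overlap the consensus. At least 1 match lay in 6 of the 10 windows, those of Nfkbia, Nfkb2 (all 3), Bcl3 and 1 of 2 of Tnfaip3, and none in those of Rela, Birc3 and Zc3h12a. Of the Nfkb2 windows, 2 overlap and share 1 match, GGGACTTTCC, which is the only match in 1 of them. Of all 32851 windows of this length, 8.46% held the consensus, 0.928% held GGAANTTCC and 8.93% held either. A match is a description of the letters and not of a bound site. Windows without a match, those of Birc3 and Zc3h12a among them, are not shown. For the 4 genes with a match, 1 window each is shown: Nfkbia (chr12:55492598-55492897, minus strand), Tnfaip3 (chr10:19015361-19015660, minus strand), Nfkb2 (chr19:46304487-46304786, plus strand) and Bcl3 (chr7:19822706-19823005, minus strand), with matches to either motif in capitals:
Nfkbia: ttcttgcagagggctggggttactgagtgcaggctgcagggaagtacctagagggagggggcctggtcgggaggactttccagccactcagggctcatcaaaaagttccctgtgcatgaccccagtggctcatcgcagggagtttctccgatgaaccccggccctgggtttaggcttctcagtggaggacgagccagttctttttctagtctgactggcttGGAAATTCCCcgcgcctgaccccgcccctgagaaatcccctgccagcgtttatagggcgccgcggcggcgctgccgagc
Tnfaip3: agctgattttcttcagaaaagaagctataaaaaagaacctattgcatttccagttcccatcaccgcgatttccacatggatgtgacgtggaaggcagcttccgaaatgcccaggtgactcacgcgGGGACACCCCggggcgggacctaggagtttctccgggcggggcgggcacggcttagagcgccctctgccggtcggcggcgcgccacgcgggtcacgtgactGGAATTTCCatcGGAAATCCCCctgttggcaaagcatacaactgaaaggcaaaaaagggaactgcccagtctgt
Nfkb2: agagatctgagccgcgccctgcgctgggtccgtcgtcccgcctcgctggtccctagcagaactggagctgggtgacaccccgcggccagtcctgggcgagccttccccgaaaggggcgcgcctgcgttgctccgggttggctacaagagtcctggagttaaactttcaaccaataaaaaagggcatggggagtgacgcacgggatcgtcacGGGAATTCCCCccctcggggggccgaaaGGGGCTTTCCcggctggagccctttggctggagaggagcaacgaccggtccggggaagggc
Bcl3: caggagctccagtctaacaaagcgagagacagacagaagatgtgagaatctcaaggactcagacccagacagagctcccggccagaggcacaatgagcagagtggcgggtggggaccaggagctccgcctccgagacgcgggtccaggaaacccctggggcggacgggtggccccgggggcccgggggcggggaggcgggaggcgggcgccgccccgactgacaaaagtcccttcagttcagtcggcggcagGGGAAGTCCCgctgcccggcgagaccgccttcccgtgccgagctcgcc

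The Nfkbia window holds GGAAATTCCC, a match to the consensus, which contains GGAAATTCC, a match to the spelled motif, 29 bases before the start, and the Tnfaip3 window holds GGAATTTCC 24 bases before it. By GENCODE annotation on GRCm38, the genes lie at chr3:135584655-135691547 (Nfkb1), chr19:46304320-46312385 (Nfkb2), chr19:5637483-5648130 (Rela), chr7:19606217-19629438 (Relb), chr12:55489410-55492647 (Nfkbia), chr16:55811375-55838899 (Nfkbiz), chr7:19808462-19822770 (Bcl3), chr10:19000910-19015657 (Tnfaip3), chr9:7848699-7873186 (Birc3) and chr4:125118423-125127840 (Zc3h12a). Nfkb2 overlaps the protein-coding gene Psd on the opposite strand and Bcl3 overlaps 2 antisense gene models. Use of strand in the authors' counting was not given in the sources used here, so reads from such overlaps cannot be told apart.

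After filtering, the library labelled knockout held 9504 cells at a median of 2638 UMIs (unique molecular identifiers, each standing for 1 RNA molecule) and the wild-type library 7718 cells at a median of 2029.5. The libraries shared 57 barcodes, 44 of them among kept cells. Levels are given as CPM, a gene's UMIs scaled by all UMIs of the same cells. Elf1 had 180 CPM in the library labelled knockout and 192 CPM in the wild-type library, a ratio of 0.942 (0.909 to 0.976). A count over the whole gene does not check a deletion whose extent is not given, so the library is called by its label throughout. The 10 genes were left out of the clustering, and names of clusters came from marker lists, so each class name means cells that resemble that type by those markers. The comparison was limited to the 9 classes that reached 100 cells in both libraries. RNA of red blood cells was spread unevenly over the cells. Outside erythroid cells, the summed level of 9 erythroid markers was highest in the smooth muscle and pericyte class of the library labelled knockout, with 16984 CPM there and 426 CPM in the same class of wild type, where B cells were highest at 2253 CPM. Its part in the results below was not tested.

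Over all kept cells, 9 of the 10 genes had a higher level in the library labelled knockout. The ratios of labelled knockout over wild type were 1.31 for Nfkb1, 1.3 for Nfkb2, 1.48 for Rela, 1.58 for Relb, 1.14 for Nfkbia, 1.11 for Nfkbiz, 1.46 for Bcl3, 1.41 for Birc3 and 1.54 for Zc3h12a. Tnfaip3 alone was lower, at 323 CPM in the library labelled knockout and 334 CPM in wild type, a ratio of 0.964 (0.939 to 0.990). These whole-library ratios mix the level per cell with the make-up of the libraries: neutrophils made up 13.3% of kept cells labelled knockout and 2.14% of wild-type cells, fibroblasts 29.2% and 15.8%, and B cells 10.6% and 32.9%.

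The orders of levels given here leave out classes with under 40 cells in a library, 19 mast cells labelled knockout and 35 wild-type glia and neurons. Those 19 mast cells had 1840 CPM of Tnfaip3 (1452 to 2299), 1768 CPM of Nfkbiz (1388 to 2220) and 191 CPM of Rela (82.5 to 377). In the library labelled knockout the 4 Rel family subunits had their highest levels in dendritic cells. Relb, the non-canonical subunit, had 356 CPM (306 to 413) in dendritic cells labelled knockout and 163 CPM (130 to 201) in wild-type dendritic cells, and in both libraries its interval lay above that of every other class. Nfkb2 had 248 CPM in dendritic cells labelled knockout, apart from the next class, T and innate lymphoid cells at 106 CPM, and 130 CPM in wild-type dendritic cells, where its interval overlapped that of neutrophils at 110 CPM. Nfkb1 had 220 CPM in dendritic cells labelled knockout and 190 CPM in wild-type ones, beside 202 CPM in wild-type mast cells. For Rela, levels from epithelial cells at the low end to dendritic cells at the high end spanned 50.9 to 166 CPM in the library labelled knockout, and from fibroblasts to neutrophils 57.5 to 102 CPM in wild type, leaving out plasma and erythroid cells.

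The inhibitor genes were highest in myeloid cells. Nfkbia had 6110 CPM in dendritic cells and 6033 CPM in neutrophils labelled knockout, whose intervals overlapped, followed by macrophages and monocytes at 5208 CPM and T and innate lymphoid cells at 4465 CPM. In wild type the order was neutrophils at 8634 CPM, macrophages and monocytes at 5301 CPM, endothelial cells at 3391 CPM and T and innate lymphoid cells at 3097 CPM, with dendritic cells at 2958 CPM overlapping the last. Nfkbiz was led in both libraries by neutrophils, at 1966 CPM labelled knockout and 3102 CPM in wild type, and then by macrophages and monocytes at 796 and 1259 CPM. For Bcl3 in the library labelled knockout, 10 classes from glia (109 CPM) to macrophages and monocytes (182 CPM) each overlapped the next in interval. The interval of macrophages and monocytes (169 to 197 CPM) still lay above those of fibroblasts (107 to 117 CPM) and B cells (106 to 140 CPM), among others. In wild type Bcl3 stood apart in neutrophils at 216 CPM, and had 52.5 to 72.1 CPM in B cells, T and innate lymphoid cells, fibroblasts and the smooth muscle and pericyte class.

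Among the feedback enzymes, Tnfaip3 was highest in T and innate lymphoid cells, at 1223 CPM labelled knockout and 1335 CPM in wild type, together with 85 wild-type mast cells at 1385 CPM. Macrophages and monocytes followed at 1070 and 1145 CPM. Birc3 had 197 CPM in B cells, 192 CPM in neutrophils and 182 CPM in dendritic cells labelled knockout, which overlapped, whereas wild-type neutrophils stood apart at 427 CPM with the next class at 123 CPM. Zc3h12a was highest in macrophages and monocytes labelled knockout (176 CPM) and in wild-type neutrophils (237 CPM), and had 94.0 CPM in epithelial cells labelled knockout and 98 CPM in wild-type ones. Epithelial cells were not compared between libraries, since only 70 were labelled knockout, 81.4% of them in a cluster led by enteroendocrine genes, against 1066 wild-type cells.

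Leaving aside glia and neurons (55 cells labelled knockout and 35 wild-type cells) and 19 mast cells labelled knockout, erythroid cells were lowest for all 10 genes in both libraries, and plasma cells were next, except that wild-type plasma cells had more Nfkbia (1077 CPM) than wild-type fibroblasts (936 CPM) or smooth muscle cells and pericytes (682 CPM) and that Bcl3 was at 17.5 CPM in wild-type mast cells and 18.5 CPM in wild-type plasma cells. Erythroid cells, which should largely lack these transcripts, held 0.588 UMIs of Nfkbia per cell in the library labelled knockout and 0.55 in wild type. For each of the other 9 genes they held at most 0.2 UMIs per cell. These levels do not bound RNA carried over into other classes. In the library labelled knockout, neutrophil markers summed to 5.11 UMIs per erythroid cell. They summed to 50.5 per endothelial cell, 8.22 per dendritic cell and 3.97 per cell of the smooth muscle and pericyte class. At least 1 UMI of Nfkbia was seen in 42.4% of 85 erythroid cells labelled knockout and 40.0% of 40 wild-type ones, at medians of 6888 and 9448 UMIs per cell, against 89.7% and 77.0% of all kept cells. With each cell thinned to 1000 UMIs the erythroid shares were 4.76% and 2.5%.

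**Figure D1:**
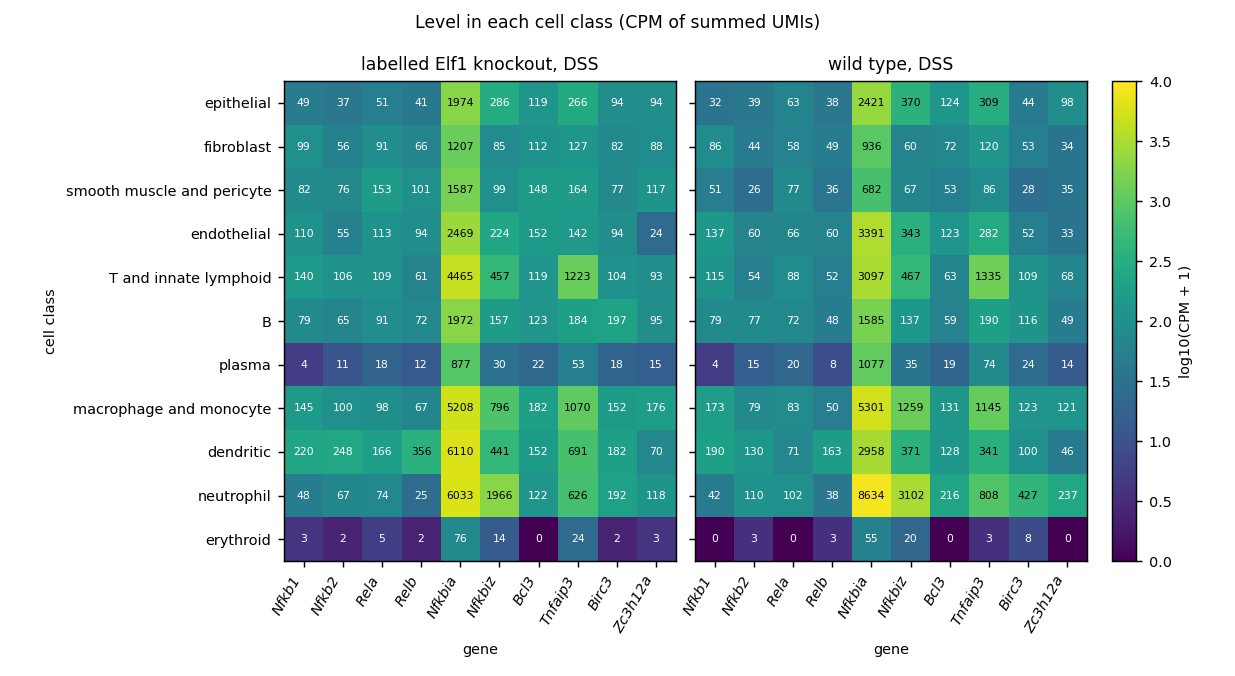
Level of each of the 10 genes (columns) in 11 cell classes (rows) of the library labelled Elf1 knockout (left) and of the wild-type library (right), as CPM of summed UMIs, printed in the cells and coloured on a log10(CPM + 1) scale. Myeloid, dendritic and T cell rows are brightest for Nfkbia, Nfkbiz and Tnfaip3, except that endothelial cells exceed dendritic and T cells for Nfkbia in wild type. The erythroid and plasma rows are darkest, except for Nfkbia in wild-type plasma cells.

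At equal depth the number of these genes seen in a cell differed by class. In cells thinned to 1000 UMIs a mean of 2.99 of the 10 genes had a UMI in 159 dendritic cells labelled knockout and 2.13 in 119 wild-type dendritic cells. Smooth muscle cells and pericytes had 1.66 labelled knockout and 0.774 in wild type, and fibroblasts 1.36 and 0.895. Neutrophils went the other way, with 2.70 labelled knockout (1172 cells) and 3.25 in wild type (129 cells). Macrophages and monocytes had 2.81 and 2.73, and erythroid cells gave 0.0952 and 0.075. A share of 51.7% of T and innate lymphoid cells labelled knockout held 3 or more of the genes, against 36.9% of wild-type ones.

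**Figure D2:**
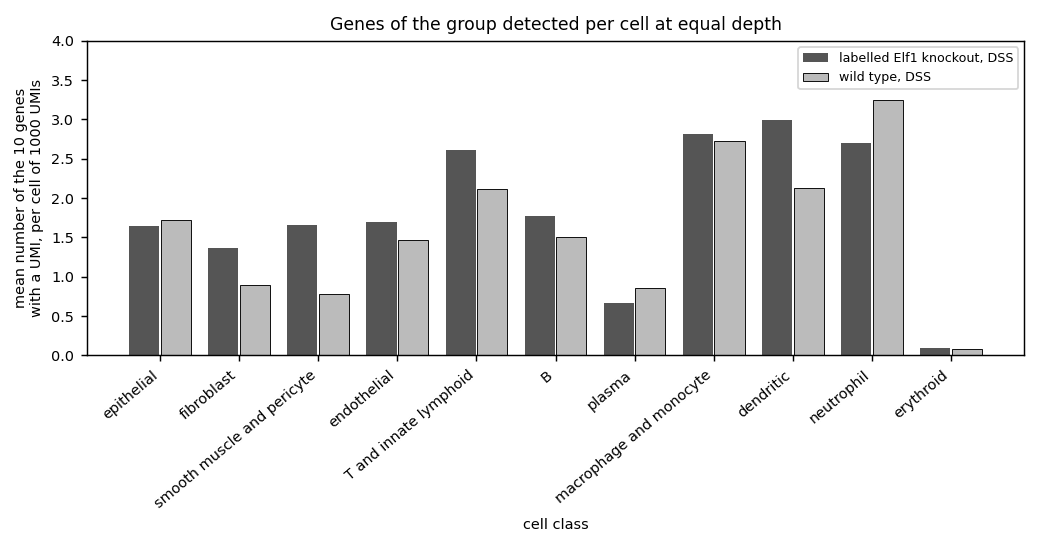
Mean number of the 10 genes with at least 1 UMI per cell after thinning to 1000 UMIs (vertical axis), by cell class (horizontal axis), for cells labelled Elf1 knockout (dark bars, left) and wild-type cells (light bars, right). Dendritic cells (2.99 and 2.13), T cells and stromal classes are taller in the library labelled knockout, and neutrophils (2.70 and 3.25) in wild type.

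Between the libraries, a gene was called different in a class when it had at least 50 UMIs there, a ratio of at least 2 or at most 0.5 and a counting interval excluding 1. Of 89 pairs of gene and class that could be assessed (Nfkb1 in plasma cells had too few UMIs), 12 were higher in the library labelled knockout and 2 lower. The higher ones were 6 in smooth muscle cells and pericytes, 4 in dendritic cells, Zc3h12a in fibroblasts and Bcl3 in B cells. The lower ones were Birc3 and Zc3h12a in neutrophils. Weighting the clusters within each class equally, an alternative added after seeing the data, left 7 higher pairs, 5 of them among the 12, and the same 2 lower. Dendritic cells and neutrophils are 1 cluster each, so this weighting could not change their pairs. Outside these classes it kept 1 of the 8 higher pairs, Bcl3 in smooth muscle cells and pericytes.

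**Figure D3:**
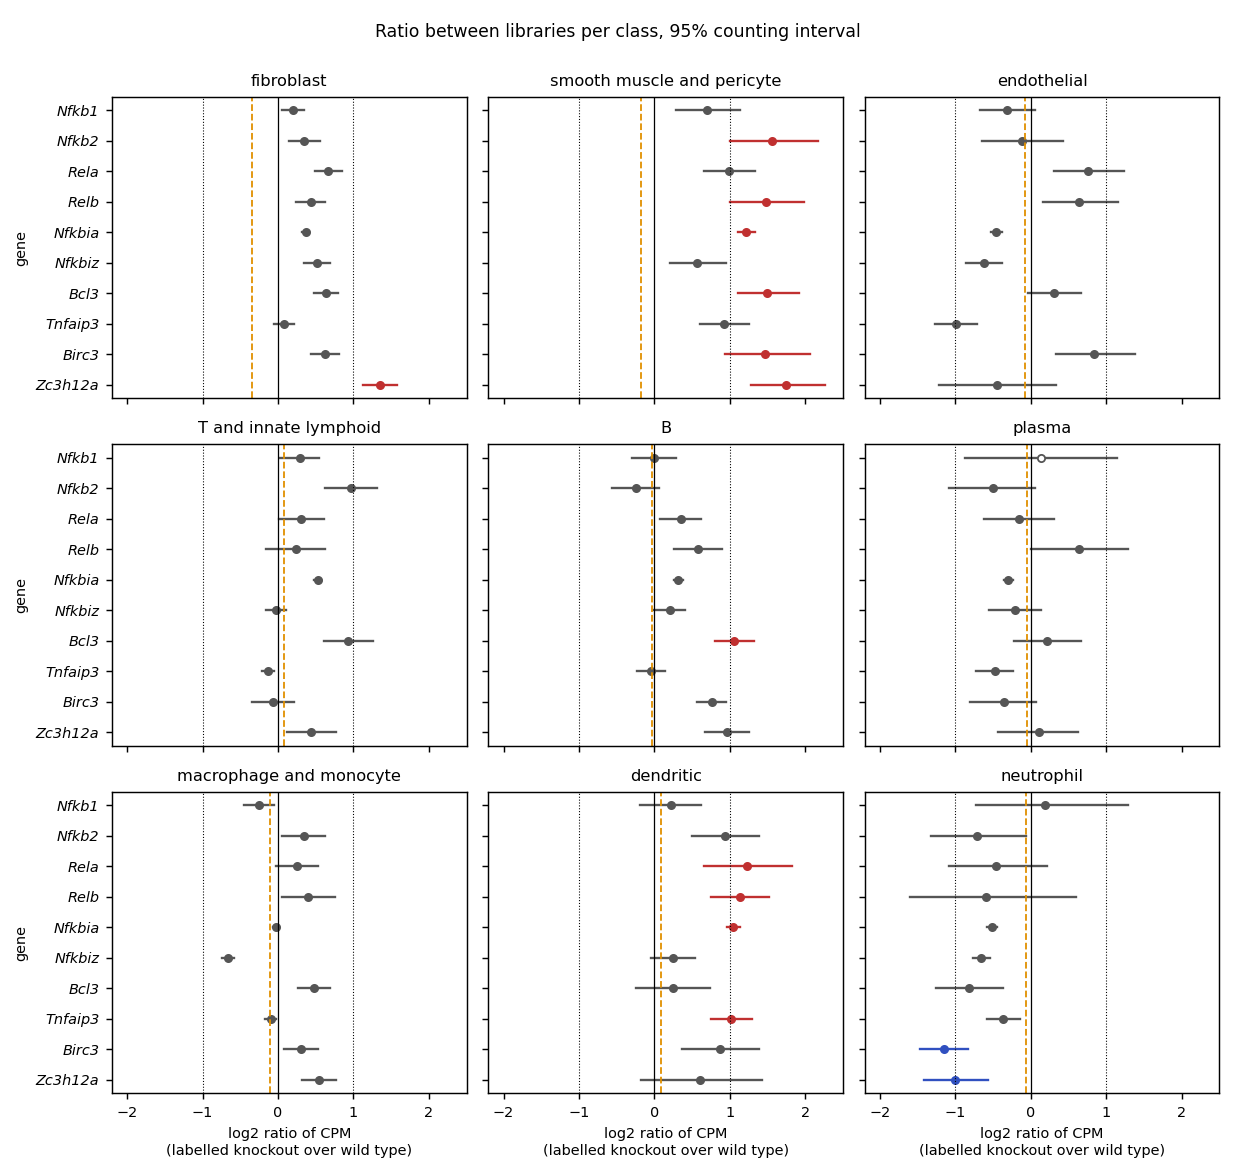
Log2 ratio of CPM, labelled Elf1 knockout over wild type (horizontal axis), of the 10 genes (vertical axis) in each of the 9 compared classes, with 95% counting intervals. Red points are at least 2-fold higher, blue points at least 2-fold lower, the open point had under 50 UMIs, dotted lines mark 2-fold, and the dashed line is the median of all genes assessed in the class.

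In smooth muscle cells and pericytes all 10 genes had ratios above 1, and 6 passed the 2-fold threshold, against 5.99% of the 7775 genes assessed there, with 11.1% lower. Their median log2 ratio was 1.35, against -0.17 for all genes. Zc3h12a had 403 UMIs (117 CPM) in 1214 cells labelled knockout and 39 UMIs (34.7 CPM) in 401 wild-type cells, a ratio of 3.37 (2.42 to 4.80). Nfkb2 had 76.3 CPM labelled knockout and 25.8 CPM in wild type, a ratio of 2.95 (2.01 to 4.50). Relb, the partner of Nfkb2, had a ratio of 2.78 (2.01 to 3.94) and Rela 1.98 (1.57 to 2.51). Nfkbia had 1587 CPM labelled knockout and 682 CPM in wild type, a ratio of 2.33 (2.16 to 2.51). Bcl3 and Birc3 had ratios of 2.82 (2.15 to 3.76) and 2.77 (1.91 to 4.17), Tnfaip3 1.90, Nfkb1 1.62 and Nfkbiz 1.49. Set against erythroid cells, wild-type cells of this class held 1.03 times the UMIs per cell of Birc3 and no more of Nfkbiz. Of the 6 genes with a UMI in erythroid cells of both libraries, Relb and Nfkbia were at 3 times that level or more on both sides.

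These cells were not the same kind in the 2 libraries. Of the cells labelled knockout 87.7% lay in cluster 12, led by Myh11, Agt and Acta2, whereas 59.9% of the wild-type cells lay in cluster 26, led by the contractile genes Cnn1, Lmod1 and Tagln, which held 4 cells labelled knockout. Both clusters expressed more fibroblast markers than markers of their own class. The counts were 10 and 9 of 14 in cluster 12, and 11 and 10 of 14 in cluster 26. In cluster 12 cells labelled knockout fibroblast markers summed to 31088 CPM and smooth muscle and pericyte markers to 4558 CPM. In wild-type cluster 26 cells these sums were 11992 and 24906 CPM. The class name is thus a label for mixed stromal cells. Over the class, the summed level of 14 smooth muscle and pericyte markers was 5826 CPM labelled knockout and 20758 CPM in wild type. That of 14 fibroblast markers was 28287 and 11923 CPM. Within cluster 12 (1065 and 92 cells) Bcl3 had a ratio of 2.79 (1.65 to 5.15), Zc3h12a 1.84 (1.13 to 3.19), Relb 1.74 (1.04 to 3.15) and Nfkbia 1.65 (1.45 to 1.88), while Tnfaip3 had 0.820 (0.614 to 1.12). In cluster 1 (145 and 69 cells), led by Des and the pericyte gene Rgs5, Nfkb2 had a ratio of 2.40 (1.04 to 6.42) and Nfkbia 1.34 (1.15 to 1.57), and Zc3h12a 2.24 (0.827 to 7.57). With these 2 clusters weighted equally, Bcl3 alone of the 6 kept its place past 2-fold, at a log2 ratio of 1.15, and the others had 0.57 to 0.96.

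In fibroblasts all 10 genes again had ratios above 1, and Zc3h12a alone passed 2-fold, against 3.31% of the 11409 genes assessed, with 13.3% lower. It had 1436 UMIs (87.6 CPM) in 2779 cells labelled knockout and 189 UMIs (34.4 CPM) in 1219 wild-type cells, a ratio of 2.55 (2.19 to 2.98). Rela had a ratio of 1.59, Bcl3 1.55, Birc3 1.54, Nfkbiz 1.43 and Nfkbia 1.29 (1.25 to 1.33). The median log2 ratio was 0.48, against -0.34 for all genes. Scaling by trimmed means raised all log2 ratios by 0.38 in fibroblasts, 0.30 in smooth muscle cells and pericytes, 0.20 in endothelial cells and 0.16 in macrophages and monocytes, and Rela and Bcl3 in fibroblasts then also passed 2-fold.

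Within 3 of 4 fibroblast clusters the direction of Nfkbia and Tnfaip3 turned. The class lay mostly in cluster 13, led by Mmp10, Mmp13 and Il11, for cells labelled knockout (51.0%) and in cluster 4, led by Sfrp2 and Wnt4, for wild-type cells (70.8%), where 13 cells were labelled knockout. Nfkbia had ratios of 0.716 (0.669 to 0.767) in cluster 13, 0.803 (0.740 to 0.872) in cluster 3, led by Ccl11 and Ccl2, and 0.857 (0.795 to 0.925) in cluster 9, led by Ptx3 and Il33. Tnfaip3 had 0.693, 0.566 and 0.743 in the same clusters, each interval below 1. Bcl3 stayed above 1 in all 3, at 3.02 (1.96 to 4.90), 1.96 (1.29 to 3.12) and 1.32 (0.968 to 1.83). Zc3h12a had 0.961 (0.722 to 1.3), 1.69 (1.11 to 2.69) and 3.49 (2.04 to 6.48). In the small cluster 10 (86 and 63 cells), led by Ptn and Thbs2, Nfkbia had 1.36 (1.05 to 1.77) and Tnfaip3 1.27 (0.508 to 3.61). With clusters weighted equally the log2 ratio in fibroblasts was -0.27 for Nfkbia, -0.51 for Tnfaip3 and 0.47 for Zc3h12a, so none passed 2-fold. The wild-type parts of clusters 13 and 3 held 101 and 71 cells.

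In endothelial cells no gene passed 2-fold in either direction, against 3.84% of 5960 genes higher and 6.59% lower. Tnfaip3 came nearest, with 142 CPM in 375 cells labelled knockout and 282 CPM in 231 wild-type cells, a ratio of 0.502 (0.414 to 0.609). Nfkbiz had 0.652 (0.553 to 0.768) and Nfkbia 0.728 (0.692 to 0.766), while Birc3 had 1.79 (1.26 to 2.6), Rela 1.70 (1.24 to 2.36) and Relb 1.56 (1.11 to 2.22). The 2 endothelial clusters went opposite ways. In cluster 15, led by the lymphatic genes Lyve1, Ccl21a and Mmrn1, 9 of the 10 genes had ratios above 1, with Birc3 at 4.65 (2.15 to 12), Rela at 3.15 (1.71 to 6.33), Nfkbiz at 2.98 (1.85 to 5.02) and Tnfaip3 at 2.64 (1.49 to 5.03). In cluster 16, led by the blood vessel genes Plvap, Madcam1 and Flt1, 7 had ratios below 1, with Tnfaip3 at 156 CPM labelled knockout and 424 CPM in wild type, a ratio of 0.367 (0.291 to 0.460), and Nfkbiz at 0.476 (0.392 to 0.576). These 4 lymphatic values rest on 7 to 20 wild-type UMIs a gene in 102 cells. Neutrophil markers summed to 19767 CPM in cluster 15 cells labelled knockout and 3780 CPM in wild-type ones, and to 6835 and 351 CPM in cluster 16, and their part in these ratios was not tested.

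Dendritic cells had all 10 ratios above 1, and 4 genes passed 2-fold, against 13.6% of the 2865 genes assessed, with 6.7% lower. Rela had 83 UMIs (166 CPM) in 208 cells labelled knockout and 37 UMIs (70.8 CPM) in 145 wild-type cells, a ratio of 2.35 (1.57 to 3.56). Relb had 2.19 (1.68 to 2.87), Nfkbia 2.07 (1.94 to 2.20) and Tnfaip3 2.03 (1.69 to 2.44), with Nfkb2 at 1.91 (1.41 to 2.6). The median log2 ratio was 0.90, against 0.09 for all genes. Under the 9 other settings chosen at the outset, Nfkbia was below 2-fold in 7, at log2 ratios of 0.18 to 0.99, Tnfaip3 in 5, at 0.44 to 0.97, Relb in 4, at -0.55 to 0.91, and Rela in 3, at 0.72 to 0.92. Neutrophil markers summed to 3423 CPM in dendritic cells labelled knockout and 546 CPM in wild-type ones, and fibroblast markers to 1404 and 268 CPM, and their part in these ratios was not tested.

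The class joined 2 kinds of cell that a finer clustering split. Cells rich in Ccr7 and Fscn1, genes of dendritic cells that migrate to lymph nodes, were 63.9% of the class labelled knockout (133 cells) and 22.1% in wild type (32 cells). Cells rich in Cd209a, a marker of conventional dendritic cells, were 29.3% (61 cells) and 71.7% (104 cells), and the finer clustering named them macrophages and monocytes. Cd209a itself had 233 CPM in those cells labelled knockout and 682 CPM in wild-type ones, and Siglech, a gene of plasmacytoid dendritic cells, 142 and 46.0 CPM. Ccr7 had 512 and 449 CPM there, so it exceeded Cd209a in the cells labelled knockout. Irf8 had 182 and 503 CPM, and Xcr1 had 0 and 49 UMIs. The cells under this name thus differed in markers between the libraries. Among the Ccr7-rich cells Relb had 464 CPM labelled knockout and 680 CPM in wild type, a ratio of 0.682 (0.499 to 0.942), and Nfkb1 had 0.595 (0.403 to 0.892). Nfkbia there had 7004 and 6169 CPM, a ratio of 1.14 (1.03 to 1.25), and Tnfaip3 1.87 (1.32 to 2.72). Among the Cd209a-rich cells Relb had 227 CPM labelled knockout and 67.6 CPM in wild type, a ratio of 3.36 (1.99 to 5.78), and Nfkbia 4990 and 2554 CPM, a ratio of 1.95 (1.78 to 2.14). With the finer clustering the class lost its Cd209a-rich cells. With doublets kept it held 147 cells labelled knockout and 34 wild-type cells, whose kind was not examined. In these settings none of the 4 genes passed 2-fold, and Relb had a log2 ratio of -0.55 or -0.53.

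**Figure D4:**
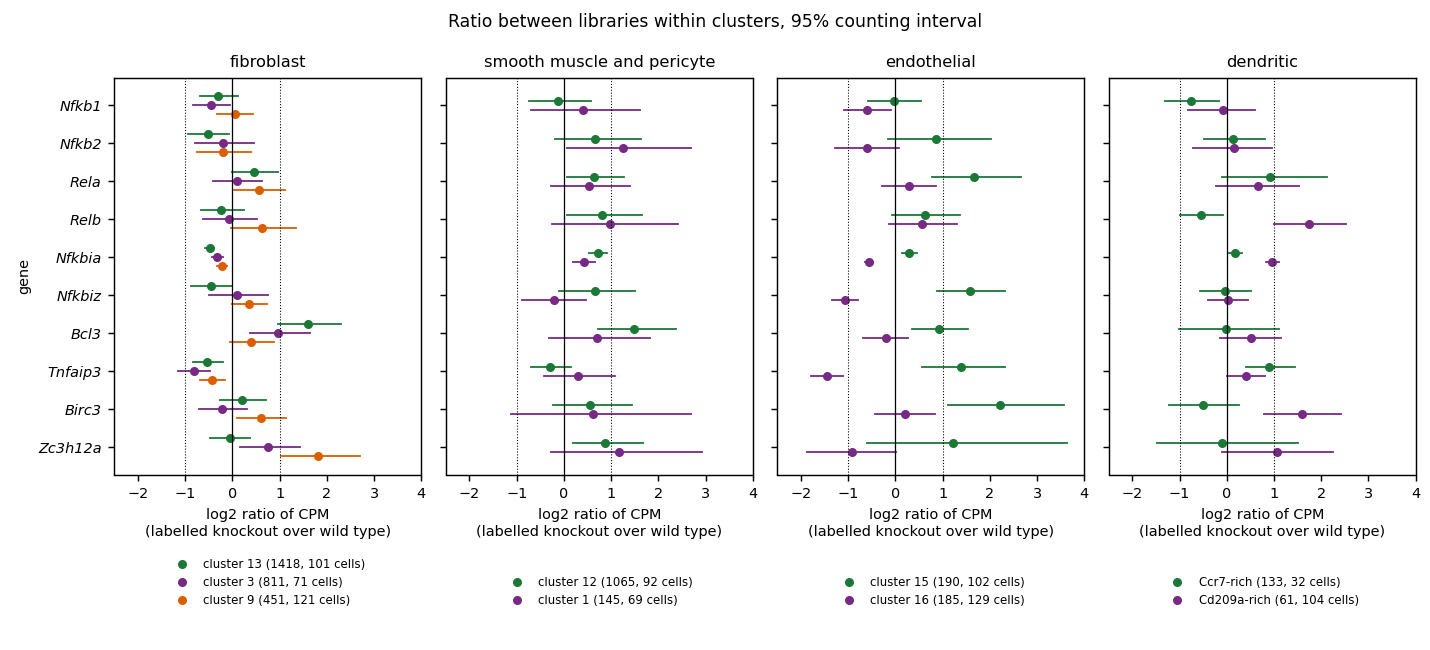
Log2 ratio of CPM, labelled Elf1 knockout over wild type (horizontal axis), of the 10 genes (vertical axis) within clusters of fibroblasts, smooth muscle cells and pericytes, endothelial cells and the 2 kinds of dendritic cell, with 95% counting intervals. The legends give cells labelled knockout, then wild-type cells, and dotted lines mark 2-fold. Nfkbia and Tnfaip3 lie left of 0 in all 3 fibroblast clusters plotted, and Nfkbiz and Tnfaip3 lie on opposite sides in endothelial clusters 15 and 16.

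Neutrophils had more genes with ratios below 1 than any other of the 9 classes. Of the 10, 9 had ratios below 1 and 7 had intervals below 1, and 2 passed 2-fold, against 8.77% of the 3898 genes assessed, with 5.52% higher. Birc3 had 508 UMIs (192 CPM) in 1261 cells labelled knockout and 101 UMIs (427 CPM) in 165 wild-type cells, a ratio of 0.449 (0.362 to 0.562). Zc3h12a had 118 CPM labelled knockout and 237 CPM in wild type, at 0.499 (0.374 to 0.676) just past the threshold. Bcl3 had 0.565 (0.420 to 0.775), Nfkb2 0.608 (0.401 to 0.956), Nfkbiz 0.634 (0.587 to 0.686), Nfkbia 0.699 (0.667 to 0.732) and Tnfaip3 0.774 (0.666 to 0.904). The median log2 ratio was -0.62, against -0.06 for all genes. Scaling by trimmed means moved the ratios in neutrophils by 0.36 on the log2 scale, to -0.79 for Birc3 and -0.64 for Zc3h12a, and neither then passed 2-fold. The 14 neutrophil markers, which include S100a8 and S100a9, summed to 265548 CPM labelled knockout and 155720 CPM in wild type, at medians of 1943 and 1339 UMIs per cell, and the part of either in these ratios was not tested.

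In macrophages and monocytes no gene passed 2-fold, against 4.96% of 7559 genes higher and 6.46% lower. Nfkbiz had 796 CPM in 977 cells labelled knockout and 1259 CPM in 543 wild-type cells, a ratio of 0.632 (0.599 to 0.668). In cluster 18, led by the resident macrophage genes C1qa, C1qb and C1qc, Nfkbiz had 510 CPM labelled knockout and 1227 CPM in wild type, a ratio of 0.416 (0.383 to 0.450), whereas Zc3h12a had 2.04 (1.66 to 2.53). In cluster 5, led by the monocyte genes Chil3 and F13a1, Nfkbiz had 0.855 (0.786 to 0.929), Zc3h12a 0.879 (0.699 to 1.11) and Nfkb1 0.650 (0.541 to 0.782). Nfkbia was level over the class, at 5208 CPM labelled knockout and 5301 CPM in wild type, a ratio of 0.983 (0.959 to 1.01). When the class was clustered again, the libraries lay largely apart. The subclusters led by Ciita, by Tppp3 and by Asb2 held 15, 10 and 9 cells labelled knockout and 155, 199 and 126 wild-type cells, and those led by Nos2, by Flt3 and haemoglobin genes, and by Il7r and Arg1 held 258, 254 and 184 cells labelled knockout and 21, 3 and 8 wild-type cells. Neutrophil markers summed to 9413 CPM in the class labelled knockout and 523 CPM in wild type, to 3590 and 416 CPM in cluster 18 and to 16280 and 750 CPM in cluster 5. The part of either in the Nfkbiz ratio was not tested.

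In T and innate lymphoid cells no gene passed 2-fold, against 5.2% of 7485 genes higher and 3.45% lower. Nfkb2 had 106 CPM in 951 cells labelled knockout and 54.4 CPM in 899 wild-type cells, a ratio of 1.96 (1.54 to 2.5), and Bcl3 119 and 62.5 CPM, a ratio of 1.90 (1.52 to 2.39). Nfkbia had 1.44 (1.4 to 1.49) and Tnfaip3 0.917 (0.867 to 0.969). Bcl3 was above 1 in each of the 3 clusters, at 2.74 (1.72 to 4.43) in cluster 6, led by Ccl5 and Nkg7, 1.7 (1.3 to 2.24) in cluster 17, led by Tnfrsf4 and Izumo1r, and 2.91 (0.892 to 15.0) in cluster 20, led by Il22 and Il17a. In the Il17a-rich cluster 20 Nfkbia had 6598 CPM in 231 cells labelled knockout and 3805 CPM in 84 wild-type cells, a ratio of 1.73 (1.59 to 1.90). In regulatory T cells (116 and 52 cells) Nfkbia was level, at 5820 and 5843 CPM, and Bcl3 had a ratio of 2.34 (1.15 to 5.39). In innate lymphoid and natural killer cells (85 and 173 cells) Bcl3 had 23 and 12 UMIs, a ratio of 5.74 (2.74 to 12.7). When the class was clustered again, a subcluster led by S100a8 and Lcn2 held 332 cells labelled knockout and 21 wild-type cells, and one led by Fam43a and Art2b held 21 and 254. Neutrophil markers summed to 1594 CPM in the class labelled knockout and 175 CPM in wild type, and the part of either in these ratios was not tested.

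In B cells Bcl3, first found as an oncogene of B cell leukaemia, passed 2-fold, against 4.06% of the 8594 genes assessed, with 5.99% lower. It had 123 CPM in 1010 cells labelled knockout and 58.8 CPM in 2540 wild-type cells, a ratio of 2.08 (1.74 to 2.49). The Bcl3 call was lost with means over cells, just under 2-fold, and with clusters weighted equally, at a log2 ratio of 0.61. Of the B cells labelled knockout 90.4% lay in cluster 7, led by Ighd and Cxcr5, whereas 53.3% of the wild-type ones lay in cluster 8, led by Fcer2a, which held 55 cells labelled knockout. Zc3h12a had 1.95 (1.60 to 2.39), Birc3 1.69 (1.48 to 1.94) and Relb 1.5 (1.2 to 1.86). In cluster 7, which both libraries filled (913 and 883 cells), Bcl3 had 1.72 (1.34 to 2.22), Birc3 1.68 (1.38 to 2.04) and Zc3h12a 1.44 (1.09 to 1.91). In cluster 8 Bcl3 had 1.37 (0.733 to 2.36). Neutrophil markers summed to 1783 CPM in B cells labelled knockout and 86.8 CPM in wild-type ones. Macrophage and monocyte markers summed to 1825 and 755 CPM, fibroblast markers to 1276 and 362 CPM, and epithelial markers to 97.7 and 535 CPM. The part of such RNA in the B cell ratios was not tested. In plasma cells no gene passed 2-fold, against 5.08% of 4881 genes higher and 5.74% lower, and Nfkbia had 877 CPM labelled knockout and 1077 CPM in wild type, a ratio of 0.814 (0.780 to 0.850).

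By ratio, Bcl3 and Rela were, of the 10 genes, those most often above 1 within clusters. Over the 19 clusters of the compared classes that held 40 or more cells of both libraries, Bcl3 had a ratio above 1 in 17 and an interval above 1 in 9, and Rela a ratio above 1 in 16 and an interval above 1 in 4. Zc3h12a had a ratio above 1 in 14 and an interval above 1 in 7. Bcl3 was below 1 in blood endothelial cluster 16, at 0.865 (0.625 to 1.20), and in neutrophils. Nfkbia and Tnfaip3 were split, with intervals above 1 in 9 and 3 clusters and below 1 in 9 and 9. Nfkbiz had an interval above 1 in 3 clusters and below 1 in 7. The share of all genes above 1 in these clusters was not computed, so these counts order the 10 genes only.

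Other genes of the pathway were described from lists. Of all genes assessed, 5.99% were at least 2-fold higher and 11.1% lower in smooth muscle cells and pericytes, 3.31% and 13.3% in fibroblasts, 13.6% and 6.7% in dendritic cells and 5.52% and 8.77% in neutrophils, and the counts below stand against these shares. In smooth muscle cells and pericytes, of 5 assessed genes among IkB proteins and Rel outside the 10, 3 were at least 2-fold higher and none lower. The median log2 ratio was 1.03, led by the inhibitor genes Nfkbie at 2.96 (1.66 to 5.72) and Nfkbib at 2.35 (1.75 to 3.20). Rel itself was lowest there, with 49 UMIs labelled knockout and 26 in wild type, a ratio of 0.614 (0.374 to 1.03). In neutrophils the same list had 1 of 6 higher and 1 lower with a median of -0.79, with Nfkbie at 0.499 and Nfkbib at 0.502, and in fibroblasts and dendritic cells medians of -0.10 and 0.68 with no gene past 2-fold. Of genes for the IkB kinase complex and its adaptors, 3 of 8 were higher in dendritic cells, with Ikbkb, the catalytic kinase of the canonical branch, at 3.31 (2.47 to 4.47), and 3 of 13 were lower in neutrophils, with Irak2 at 0.277 (0.191 to 0.411). That list had 3 of 15 higher and 1 lower in smooth muscle cells and pericytes, and 2 of 23 lower in fibroblasts. Of the non-canonical pathway, 4 of 5 were higher in dendritic cells, including Traf3 at 3.46 (1.83 to 7.01), Birc2 at 3.39 (2.49 to 4.69) and Map3k14, the kinase NIK, at 2.29 (1.64 to 3.25). The list holds 17 genes, and Birc2 is also on the kinase list. No list was measured within clusters of a class or within the 2 kinds of dendritic cell. Of these, the Ccr7-rich kind made up 63.9% labelled knockout and 22.1% in wild type. Smooth muscle cells and pericytes lay mostly in cluster 12 labelled knockout (87.7%) and in cluster 26 in wild type (59.9%). Fibroblasts lay mostly in cluster 13 labelled knockout (51.0%) and in cluster 4 in wild type (70.8%). The part of this make-up in the list ratios was not tested. Of the non-canonical list 2 of 8 were higher in smooth muscle cells and pericytes and 2 of 6 lower in neutrophils. In fibroblasts 1 of 12 was lower, Tnfsf13b, the B cell survival factor BAFF, at 0.203 (0.187 to 0.220).

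Among further ubiquitin-editing and feedback genes, Tnip1, a partner of A20, had 352 CPM in smooth muscle cells and pericytes labelled knockout and 45.4 CPM in wild type, a ratio of 7.75 (5.86 to 10.5), and 2.39 (2.14 to 2.67) in fibroblasts. Irak3, an inhibitor of Toll-like receptor signalling, had 4.6 (2.77 to 8.19) and 2.6 (2.25 to 3.03) in the same classes. Counts for that list were 2 of 23 higher and 2 lower in smooth muscle cells and pericytes, 2 of 24 and 4 in fibroblasts, 6 of 16 and 1 in dendritic cells, and 0 of 17 and 1 in neutrophils. Those in smooth muscle cells and pericytes and in neutrophils, and those lower in fibroblasts, lie near the shares of all genes. Of inducing cytokines and their receptors, 6 of 13 were higher and 1 lower in smooth muscle cells and pericytes, with the endotoxin coreceptor Cd14 at 6.25 (3.73 to 11.3), and in neutrophils 1 of 14 was higher and 3 lower, with Tnf at 2.32 (1.82 to 3.01) and Il1b at 0.391 (0.374 to 0.410). In fibroblasts 2 of 17 were higher and 2 lower, and in dendritic cells 3 of 9 were higher.

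Genes known to be induced by NF-kB were higher than all genes at the median in 8 of the 9 classes. In smooth muscle cells and pericytes 15 of 29 were at least 2-fold higher and 0 lower, with a median log2 ratio of 1.04, and in dendritic cells 18 of 30 were higher and 1 lower, with a median of 1.39. The members with the highest ratios in dendritic cells, the neutrophil chemokines Cxcl5 and Cxcl3, had 71 and 114 UMIs labelled knockout and 2 and 4 UMIs in wild type. In fibroblasts 10 of 39 were higher and 3 lower, and Csf3, encoding the neutrophil growth factor G-CSF, had 1587 CPM labelled knockout and 137 CPM in wild type, a ratio of 11.6 (10.8 to 12.4). In neutrophils 9 of 36 were higher and 8 lower, with a median of -0.17 against -0.06 for all genes, and Ptgs2, encoding cyclooxygenase-2, had 0.196 (0.171 to 0.226) while the acute phase gene Saa3 had 11.8 (8.19 to 17.6). Of transcripts that depend on Nfkbiz or are degraded by Regnase-1, 6 of 9 were higher in smooth muscle cells and pericytes, 4 of 15 in fibroblasts, 8 of 12 in dendritic cells and 3 of 10 in neutrophils, where 1 was lower. The 2 lists share Csf3, Lcn2, Cxcl3, Cxcl5, Ptgs2 and further members, so their counts are not separate. Nfkbiz, 1 of the 10 genes, is itself on the second list. Lcn2 is also 1 of the 14 neutrophil markers. These markers summed to 3604 CPM in fibroblasts labelled knockout and 443 CPM in wild-type ones, of which Lcn2 made 2697 and 322 CPM. In smooth muscle cells and pericytes they summed to 1396 and 111 CPM, of which Lcn2 made 518 and 10.7 CPM. In dendritic cells the same markers summed to 3423 and 546 CPM. The part of neutrophil RNA, or of the differing clusters within a class, in these list counts was not tested.

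Genes of the response to dissociation, immediate early and heat shock genes, had a lower median log2 ratio than all genes in 8 of the 9 classes, though most members were under 2-fold lower outside smooth muscle cells and pericytes. In smooth muscle cells and pericytes 12 of 24 were at least 2-fold lower in the library labelled knockout and 0 higher, with a median log2 ratio of -0.99, and in fibroblasts 8 of 25 were lower and 0 higher. In dendritic cells 7 of 23 were lower and in neutrophils 5 of 22, with none higher. Some members had intervals above 1, among them Ier3 at 1.94 and Socs3 at 1.56 in dendritic cells, Ier3 at 1.79 in smooth muscle cells and pericytes and at 1.13 in fibroblasts, and Egr1 at 1.33 in neutrophils. Hspa1b, a heat shock protein gene, had 77.1 CPM in smooth muscle cells and pericytes labelled knockout and 399 CPM in wild type, a ratio of 0.193 (0.166 to 0.226), and 9.45 and 114 CPM in neutrophils. The medians for T and innate lymphoid cells and B cells were -0.08 and -0.03, with 7 of 25 lower and 0 higher in T and innate lymphoid cells and 6 of 25 lower and 2 higher in B cells. Several of the 10 genes, Nfkbia and Nfkbiz among them, are themselves quickly induced on tissue handling, and the part of handling in the ratios was not tested.

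**Figure D5:**
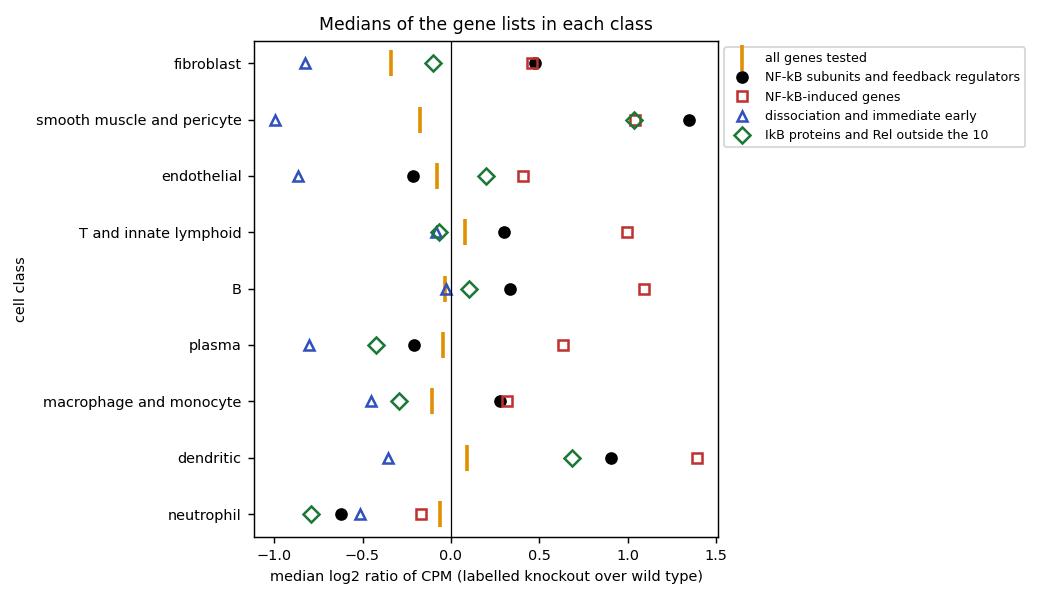
Median log2 ratio of CPM, labelled Elf1 knockout over wild type (horizontal axis), of the 10 genes (black circles) and of 3 further lists (open symbols) in each compared class (vertical axis), with the median of all genes assessed as an orange bar. The 10 genes have their highest median, 1.35, in smooth muscle cells and pericytes and their lowest, -0.62, in neutrophils, and dissociation genes lie left of all genes in every class but B cells, where they are level.

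Across classes, levels of the 10 genes went together to different degrees. Over 22 points (11 classes that had 40 cells or more on both sides), the correlation of log2(CPM + 1) between pairs of the 10 ran from 0.57 for Relb and Nfkbiz to 0.94 for Rela and Bcl3. These points share libraries and depth, and the low plasma and erythroid points enter every value. Among 9748 genes, the 3 most like Nfkb2 were Nfkbib (0.98), Fbxl20 (0.97) and Ric1 (0.96), and those most like Tnfaip3 were Tnfrsf1b (0.93), which encodes a tumour necrosis factor receptor, Nfkbia (0.93) and Zc3hav1 (0.93). Nfkbia was most like Ccnl1 (0.96), Nfkbib (0.96) and Fem1c (0.95), Nfkbiz like Slfn2 (0.95), Map2k3 (0.93) and Fes (0.93), and Birc3 like Arih2 (0.95), Jmjd1c (0.95) and Fbrs (0.95). Relb was most like Usp12 (0.94), Hivep1 (0.94) and Rab21 (0.94), Nfkb1 like Pum2 (0.95), H2afy (0.95) and Mcmbp (0.95), and Rela like Nr1h2, Etf1 and Capzb (0.97 each). Bcl3 was most like Ppp2ca, Vps4b and Rbm7 (0.98, 0.98 and 0.97), and Zc3h12a like Arih2, Eif2s3y and Senp2 (0.94, 0.94 and 0.93). Without plasma and erythroid cells, a choice made after seeing the data, Nfkb2 was still most like Nfkbib (0.90), Nfkbia was most like Slfn2 (0.94) and then Nfkbiz (0.94), Birc3 like Arih2 (0.90) and then the inhibitor gene Nfkbie (0.90), Relb like Hsf2 (0.83) and then Fscn1 (0.82), and Rela like Fas (0.72) and then the red cell genes Alas2 (0.72) and Hbb-bs (0.71).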

How the data were processed

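Single-cell RNA-seq counts of 2 DSS-treated mouse colon libraries, made on Singleron GEXSCOPE microchips, were used as the authors deposited them: raw UMI counts per gene and barcode with no normalization, with gene and barcode lists beside them. Per the submitters' processing notes STAR 2.6.1a, featureCounts 2.0.1 and cutadapt 1.17 were used, and GRCm38 was the build. The deposited files held 10012 barcodes and 39750319 UMIs for the library labelled knockout, and 8635 barcodes and 32481613 UMIs for wild type.

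Barcodes were kept with at least 500 UMIs, 200 genes and at most 25% mitochondrial UMIs. Doublets were called per library by scrublet in scanpy 1.11.5 (rate 0.06). It marked 230 barcodes of the library labelled knockout (2.36%) and 2 in wild type (0.0246%), so that there the 5% with the highest scores, 406, were removed. The 2 libraries were merged for clustering (log1p of counts per 10000, 2000 variable genes without the 10 described here, 30 principal components, 15 neighbours, Leiden resolution 1, igraph 0.11.9). A class needed at least 3 and 50% of its markers in a cluster (a UMI in 10% of cells and 3 times the median cluster), most markers among the 10 leading genes. The rule was chosen with the clusters in view. Cluster 14, with 164 and 23 cells, stayed unnamed. T cells were clustered again to name subtypes, and dendritic cells were split by the clusters of Leiden resolution 2, a split chosen after seeing the data.

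UMIs were summed per class and library. Exact 95% intervals are Poisson for CPM, Clopper-Pearson for shares and conditional binomial for ratios (python 3.11.15 with pandas 2.3.3, numpy 2.4.6 and scipy 1.17.1). They cover counting error only. No p-value was computed, and pooled mice cannot be separated. The alternatives were TMM scaling (edgeR 4.0.16), thinning to 1000 UMIs, doublets kept, at most 10% mitochondrial UMIs, Leiden resolution 2, the 10 genes allowed among the variable genes, separate clustering, means over cells, no UMI minimum and clusters weighted equally. The ratio code was run on simulated Poisson counts, which hold counting error only and so do not check spread between mice or cells. Named were all 10 genes, genes among the 2 highest and 2 lowest of each list in the 4 classes with most calls, and the 3 most alike genes each. The genes and lists were chosen with earlier results of these data known.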

Additional observations from a re-analysis of the deposited data

Results flagged for a closer look

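Ratios of labelled knockout over wild type differed in direction between cell classes for 8 of the genes, all but Rela and Relb, each with a counting interval above 1 in at least 1 class and below 1 in another. Of these, 6 also passed 2-fold in a class, while Nfkb1 (1.15 in fibroblasts and 0.839 in macrophages and monocytes) and Nfkbiz (1.49 in smooth muscle cells and pericytes and 0.632 in macrophages and monocytes) did not. The highest class was smooth muscle cells and pericytes and the lowest neutrophils for Nfkb2 (2.95 and 0.608), Nfkbia (2.33 and 0.699), Bcl3 (2.82 and 0.565), Birc3 (2.77 and 0.449) and Zc3h12a (3.37 and 0.499). For Tnfaip3 the highest was dendritic cells, at 2.03, and the lowest endothelial cells, at 0.502. Within endothelial cells, Nfkbiz had 2.98 in the lymphatic cluster 15 and 0.476 in the blood vessel cluster 16, and Tnfaip3 had 2.64 and 0.367. None of these differences between classes or clusters was tested, since each group has 1 library. The share of all genes with intervals on both sides of 1 was not computed, so whether 8 is unusual cannot be said.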

How the results depend on the processing

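No paired analysis was possible because each group has 1 library. The 12 pairs at least 2-fold higher in the library labelled knockout numbered 8 to 15 under the 9 other settings chosen at the outset, and 7 when clusters were weighted equally, a setting chosen after seeing the data, with 5 of the 12 among them. This setting leaves out clusters held almost wholly by 1 library and cannot act on dendritic cells or neutrophils, which are 1 cluster each and hold 4 of those 5. The 2 lower pairs, both in neutrophils, became 0 under TMM scaling and 1 with doublets kept, with Leiden resolution 2, with separate clustering and with means over cells; Zc3h12a, at the threshold, was the one lost in the last 4. It was also lost with at most 10% mitochondrial UMIs, at -0.97, where Tnfaip3 in endothelial cells just passed and the count stayed at 2. The count was 2 or 3 otherwise. Relb in dendritic cells, at a log2 ratio of 1.13, reversed to -0.53 with doublets kept (147 and 34 dendritic cells) and to -0.55 at Leiden resolution 2 (133 and 32 cells), where the class lost its Cd209a-rich cells, and Nfkbia there fell to 0.18 in both. The 10 genes were in no set of variable genes, so allowing them changed nothing. Thinning left 72 pairs with 50 UMIs. Separate clustering gave no wild-type plasma class. Depth limits most the wild-type neutrophils (236289 UMIs) and clusters with under 100 wild-type cells.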
